A study of Mus musculus with 20 samples.

Results

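The occipital cerebral wall of young adult mice exposed to cocaine before birth was compared with that of saline-exposed mice on 5 arrays, the slides titled as adult occipital cortex cocaine 1 to 5, out of 20 arrays in the series. The members were chosen by title alone, so no measured value entered the choice. Pregnant Swiss Webster dams were injected under the skin with 20 mg/kg cocaine hydrochloride 2 times daily from embryonic day 8 to 18. Control dams received saline on the same schedule and were pair-fed with the cocaine dams, and the offspring were dissected on postnatal day 30 under pentobarbital anaesthesia. The schedule was picked by the submitters for its reported reduction of cortical mass in offspring. The dissected wall held the cortex and the zones beneath it behind the level of the hippocampus. Each slide carried 5 µg of RNA per channel, cocaine in channel 1 and saline in channel 2, each with its own Alexa dye, and drew on its own control and experimental litters. Those 5 slides are called replicates 1 to 5, and replicates 3 and 4 were more alike than the rest, as described below. The number, sex and pooling of the adult animals are not given in the labels, which also describe 1 outbred stock, 1 dose and 1 age after birth. The other groups used here carry the same treatment: adult frontal cortex of the same age, where shared animals are not stated, and fetal occipital cortex, taken 1 h after the morning injection on embryonic day 18 from 2 fetuses per channel. No dye swap is labelled, so a fixed difference between the dyes and the effect of cocaine cannot be told apart.

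Cocaine blocks the transporters that clear dopamine, serotonin and noradrenaline from the synapse, and it crosses the placenta while cortical neurons are born and migrate. The occipital cortex holds the visual areas, which receive sparser dopaminergic fibres than the frontal cortex. At the age sampled, synapses are being refined in the critical period for visual plasticity and myelin is still forming. The files hold ratios only, so they give no level of any gene, and the labelled tissue could not be checked against its markers.

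Each value is the log2 of the cocaine signal over the saline signal after centring its array on the median, and means are given ± SE of a limma model with n = 5 arrays. The direction is likely, from the order of the channels in the labels. A value of 1 is a fold of 2 in that direction. Of 22567 probes tested, 10882 (48.2%) passed at a Benjamini-Hochberg adjusted p under 0.05 in limma. Of these 5444 (24.1%) were higher after cocaine and 5438 (24.1%) lower, and 9889 (43.8%) also had the same sign on 5 of 5 arrays, as 11934 probes (52.9%) did whether or not they passed. The median size of a mean ratio was 0.72, and 74 of the higher and 60 of the lower probes lay beyond 2 and -2. The median SE of a probe was 0.31.

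Other features of the arrays moved with these calls. First, ratios rose with a brightness score, which ranks spots by how large the whole numbers behind their ratios must be. The dimmest of 10 equal groups of probes had a median of -1.06 and 71.8% of it passed lower, while the brightest group had a median of 1.19 and 88.8% of it passed higher. The Spearman correlation across probes was 0.63 to 0.78 on the 5 arrays. Brightness took up 37.2% to 59.6% of the variance of an array, and position on the slide 3.51% to 10.6%. With the brightness trend removed from each array 1562 probes (6.92%) passed, 896 higher (3.97%) and 666 lower (2.95%). With both trends removed 2098 (9.3%) passed, 1121 higher (4.97%) and 977 lower (4.33%), and 1286 of them had passed the same way before. Brightness of a spot and abundance of its transcript cannot be told apart here, and the score is itself built from the ratios. With a score taken from the other 15 arrays and corrected for this, an alternative chosen after the data were seen, 4460 probes (19.8%) passed, 10.4% of all probes higher and 9.4% lower.

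**Figure D1:**
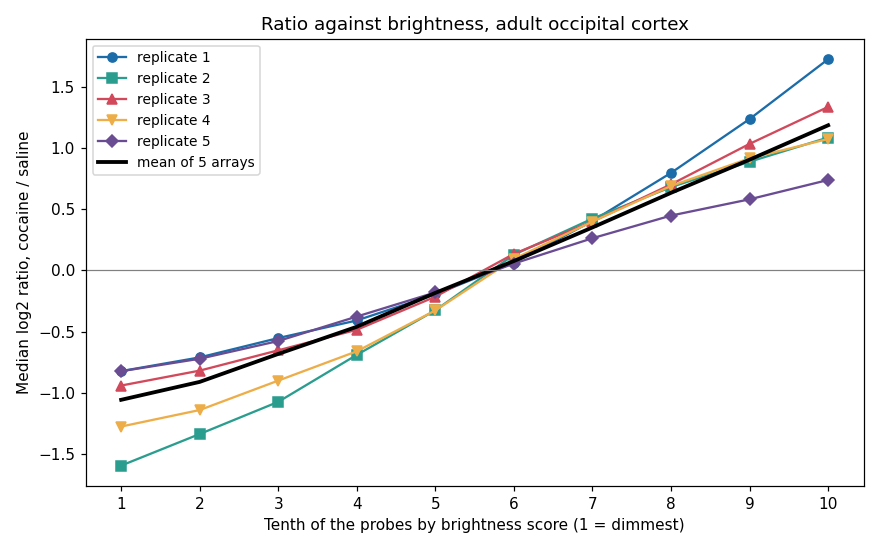
Median log2 ratio of cocaine over saline (vertical axis) in 10 equal groups of probes ordered by brightness score (horizontal axis, 1 dimmest), for each adult occipital array and for the mean of the 5. The lines climb on every array, and the mean goes from -1.06 to 1.19.

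Second, replicates 3 and 4 shared a set of high probes. On 406 of 22516 probes with 5 values (1.80%) both arrays exceeded each of the other 3 by more than 1, while any other pair did so on 3 to 166 probes. The medians of those probes were 2.04 and 2.13 on replicates 3 and 4 and between -0.47 and 0.51 on the other 18 arrays of the series. The widest gap belonged to Tmem186, a mitochondrial membrane protein, at -0.66, -0.88, 3.24, 3.36 and -0.71 on replicates 1 to 5. Ifit3, an interferon-induced antiviral gene, stood at -0.22, -0.49, 2.84, 2.92 and -0.72. On these genes replicates 3 and 4 were both above 2.8 and the other 3 arrays below 0. Their values correlated across probes at 0.64 with both trends removed, and those of the other pairs of adult occipital replicates at 0.255 to 0.46. Adult frontal arrays 2 and 4 correlated at 0.73, and adult occipital replicate 2 with those frontal arrays at 0.64 and 0.66. Each slide is labelled with its own litters, and whether any of these arrays share a source was not tested. SE and p below count replicates 3 and 4 as 2 of 5 arrays. Without replicates 3 and 4, a choice made after the data were seen, 5013 probes (22.2%) passed, 10.4% of all higher and 11.8% lower. Once both trends were removed as well 36 (0.16%) did, 0.0931% of all higher and 0.0665% lower. Of 158 probes named below by rule, 51 kept their call with both trends removed, 121 without replicates 3 and 4, and 7 with both changes. Some of the 158 were chosen because they pass with both trends removed, so part of the 51 was fixed in advance. Genes named below because they passed in every version of the fit are not all among the 158. A mean given alone is that of 5 arrays with no trend removed.

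**Figure D2:**
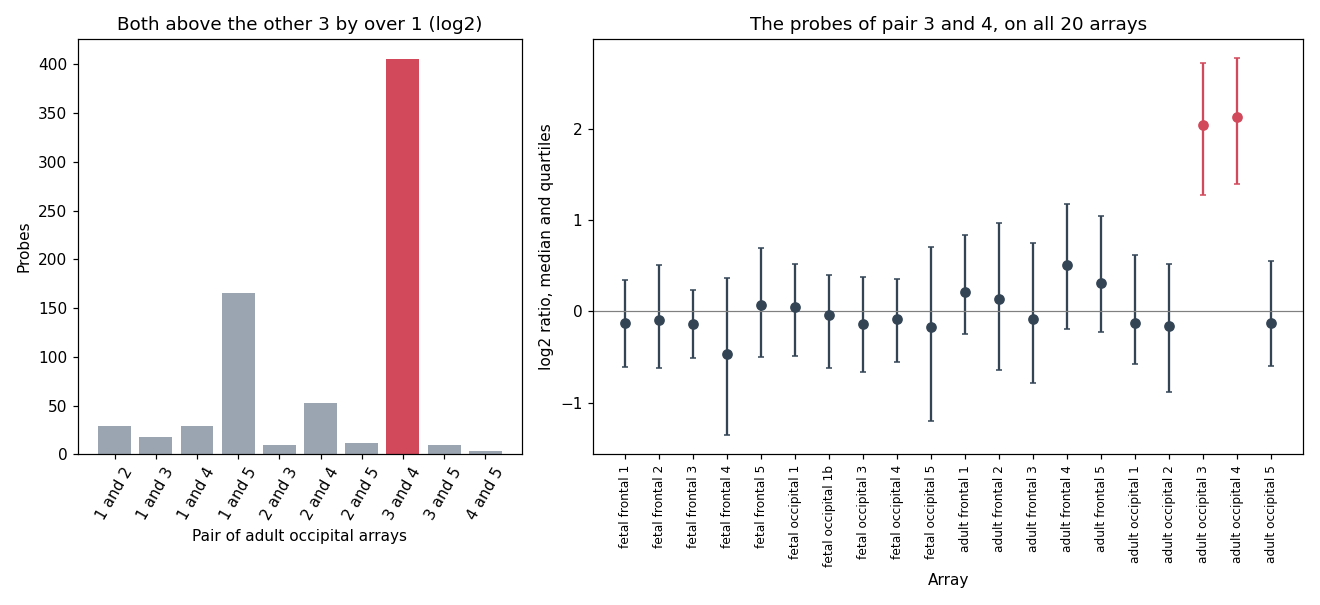
Left, the number of probes on which both arrays of a pair of adult occipital replicates exceed the other 3 by more than 1 (log2); right, the median (points) and quartiles (bars) of the 406 probes of replicates 3 and 4 on all 20 arrays. The pair of replicates 3 and 4 stands at 406 against at most 166, and the medians of its probes lie between -0.47 and 0.51 on the other 18 arrays.

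The highest mean ratios with 1 sign on every array were spread over enzymes, transporters and signalling genes. Rgs20, which shortens signalling by inhibitory G proteins, was at 4.33, 2.01, 4.11, 1.67 and 3.69 on replicates 1 to 5. All 5 arrays were above 1.6, and replicates 1, 3 and 5 were the highest. The mean of 3.16 ± 0.44 is a fold of 8.94 and passed with a limma adjusted p of 4.72e-05. Usp4, a deubiquitinating enzyme, was at 3.64, 1.40, 3.41, 2.68 and 3.10, lowest on replicate 2, with a mean of 2.85 ± 0.36 and an adjusted p of 3.81e-05. Both genes also passed with the trends removed, at 1.25 and 1.66, and without replicates 3 and 4, at 3.34 and 2.71. With both changes together they reached 1.31 and 1.58 and missed the threshold, with limma adjusted p of 0.109 and 0.0823.

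Ucn3 encodes urocortin 3, a peptide ligand of the type 2 corticotropin-releasing factor receptor. It was at 2.27, 1.38, 4.0, 3.81 and 1.90, highest on replicates 3 and 4, and averaged 2.67 ± 0.43. Its mean was 1.85 without those arrays, 2.02 with the trends removed and 1.20 with both, where its limma adjusted p was 0.0951. The other 9 highest genes were the sperm protein gene Wbp2nl (3.41 ± 0.53), the microtubule crosslinking factor Mtcl1 (3.25 ± 0.51, with 0.59 on its other probe), the methyltransferase Smyd3 (3.09 ± 0.61), the zinc carrier Slc30a9 (3.07 ± 0.54), the glucokinase Adpgk (2.97 ± 0.57), Tti1 (2.74 ± 0.52), which helps to stabilise large kinases of the DNA damage response, the vitamin transporter Slc5a6 (2.70 ± 0.38), the glycosylation enzyme Alg13 (2.62 ± 0.47) and the kinase Nek3 (2.60 ± 0.37). Adpgk and Tti1 varied most between arrays, reaching 6.16 and 5.85 on replicate 1 and 0.77 and 0.65 on replicate 2. These 12 genes had brightness percentiles from 78.9 to 100, and Smyd3, Slc30a9 and Alg13 lost their calls once both trends were removed.

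Among the lowest ratios, Zkscan1, a zinc finger transcription factor, was at -1.71, -1.43, -2.80, -2.46 and -3.75 on replicates 1 to 5. Every array was below -1.4, and replicate 5 was the lowest. Its mean of -2.43 ± 0.45, a fold of 5.39 in favour of saline, passed with a limma adjusted p of 0.000308, while its other probe averaged -0.53 and did not pass. Clec4e encodes Mincle, a receptor of myeloid cells for damaged cells and fungi, and was at -1.75, -2.72, -2.68, -2.27 and -1.63. Its 5 values lay between -2.72 and -1.63 with no array apart, for a mean of -2.21 ± 0.35 and an adjusted p of 0.000109. The probes shown passed in all 4 versions: with both trends removed and without replicates 3 and 4, Zkscan1 stood at -3.45 and Clec4e at -2.16, with limma adjusted p of 0.016 and 0.0239.

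Nalcn, the sodium leak channel that sets resting excitability of neurons, was at -2.15, -2.10, -2.23, -2.0 and -2.05, the tightest of the group, and averaged -2.10 ± 0.34. It lies at brightness percentile 6.38, and with both trends removed its mean was -0.88 with a limma adjusted p of 0.0654. Its other probe averaged 0.40 and did not pass. The phosphatase Ptpn13 (-2.29 ± 0.32), the histone gene H3c1 (-2.38 ± 0.38) and Aff1 (-2.08 ± 0.40), a scaffold of transcription elongation, fell as well, though the other probe of Aff1 was higher, at 0.87. Also lower were the odorant receptor genes Olfr1008 (-2.16 ± 0.34) and Olfr671 (-2.14 ± 0.30), the kallikrein Klk1b27 (-2.12 ± 0.42), Triml1 (-2.15 ± 0.29), Cdcp3 (-2.10 ± 0.28) and 1700086D15Rik (-2.08 ± 0.36). H3c1, Klk1b27 and the odorant receptors have close relatives that a probe may also bind. Of these 12 lowest genes, Klk1b27 and Nalcn missed the threshold with both trends removed.

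Ranked instead by the value with both trends removed, the highest genes that passed both ways were led by probes that were high on replicates 3 and 4. Btn2a2, an immune butyrophilin, was at 0.50, 0.14, 3.85, 3.32 and 0.34, and Tshr, the thyrotropin receptor, at 0.43, 0.33, 3.39, 3.78 and 0.42. On both genes replicates 3 and 4 exceeded 3 and the other arrays stayed at or under 0.51. Without replicates 3 and 4 their means were 0.33 and 0.39, with limma adjusted p of 0.546 and 0.5. The photoreceptor fascin Fscn2, at 0.58, and 2810021J22Rik, at 0.46, lost their calls in the same way. The other probe of Tshr passed lower, at -1.05. Trpc5, a cation channel of neurons, had 1.21 without them and an adjusted p of 0.0562. Ugt2b1, a glucuronidation enzyme, stood at 1.44, Prr15 at 1.62 and the motor protein gene Myo7a at 1.25, and these 3 kept their calls without them.

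On the lower side the same ranking was headed by Zkscan1, then by Brd8, a bromodomain subunit of a histone acetyltransferase complex, at -2.04, -0.17, -1.92, -2.32 and -2.29. Replicate 2 stood apart there, and the mean was -1.75 ± 0.38, beside -1.40 on its other probe, or -2.57 with the trends removed. Bpifc, of a family of lipid-binding proteins, was at -1.54, -2.26, -1.51, -0.63 and -2.41, below 0 on every array, with a mean of -1.67 ± 0.31. It reached -2.56 with the trends removed and -2.93 without replicates 3 and 4 as well, with a limma adjusted p of 0.00087. The zinc finger gene Zfp267 (-1.40 ± 0.43), Atxn2l (-2.02 ± 0.42), an RNA-binding relative of ataxin 2, Parp11 (-1.64 ± 0.46), an ADP-ribosyltransferase, and Pclaf (-1.61 ± 0.40), which binds the replication clamp, completed the 8 with Clec4e. Zfp267 had a limma adjusted p of 0.0645 without replicates 3 and 4.

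In all, 22 probes passed in each of the 4 versions, 11 higher and 11 lower, and 20 of them had 1 sign on 5 of 5 arrays. This selection was made after the values were seen. The 10 higher genes with a symbol included a pair of neuronal calcium sensors. Vsnl1, visinin-like protein 1, was at 2.58, 1.27, 1.5, 1.14 and 0.96 on replicates 1 to 5, and Hpcal4, of the same family, at 1.88, 1.32, 0.15, 0.68 and 0.51. Both were above 0 on every array and highest on replicate 1. Their means were 1.49 ± 0.32, a fold of 2.81, and 0.91 ± 0.27, a fold of 1.88. After removal of both trends and without replicates 3 and 4 they stood at 1.58 and 1.34, each with a limma adjusted p of 0.0443.

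Atp5e, the epsilon subunit of the mitochondrial ATP synthase, was at 1.56, 1.18, 0.89, 0.82 and 0.62, again highest on replicate 1, with a mean of 1.01 ± 0.25. The mitochondrial ribosomal protein gene Mrpl43 was at 4.30, 1.64, 1.66, 0.70 and 1.85. Its mean of 2.03 ± 0.37 leaned on replicate 1, and it was 2.59 without replicates 3 and 4. Orc5, a subunit of the origin recognition complex, was at 1.68, 1.24, 1.97, 1.51 and 0.89 with a mean of 1.46 ± 0.26 and little spread. The other higher genes were Myo7a (1.34 ± 0.37), Nfatc2ip (1.32 ± 0.29), Snapc4 (1.10 ± 0.35), a factor for small nuclear RNA transcription, the transcription factor Dmrt2 (0.94 ± 0.33) and Cnpy2 (0.78 ± 0.29). Myo7a ran from -0.47 on replicate 4 to 3.44 on replicate 3, and Dmrt2 from -0.03 on replicate 2 to 2.13 on replicate 1. Lower besides Zkscan1, Bpifc and Clec4e were Tmem39b (-1.68 ± 0.26) and the Golgi tether Golga5 (-1.10 ± 0.29).

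**Figure D3:**
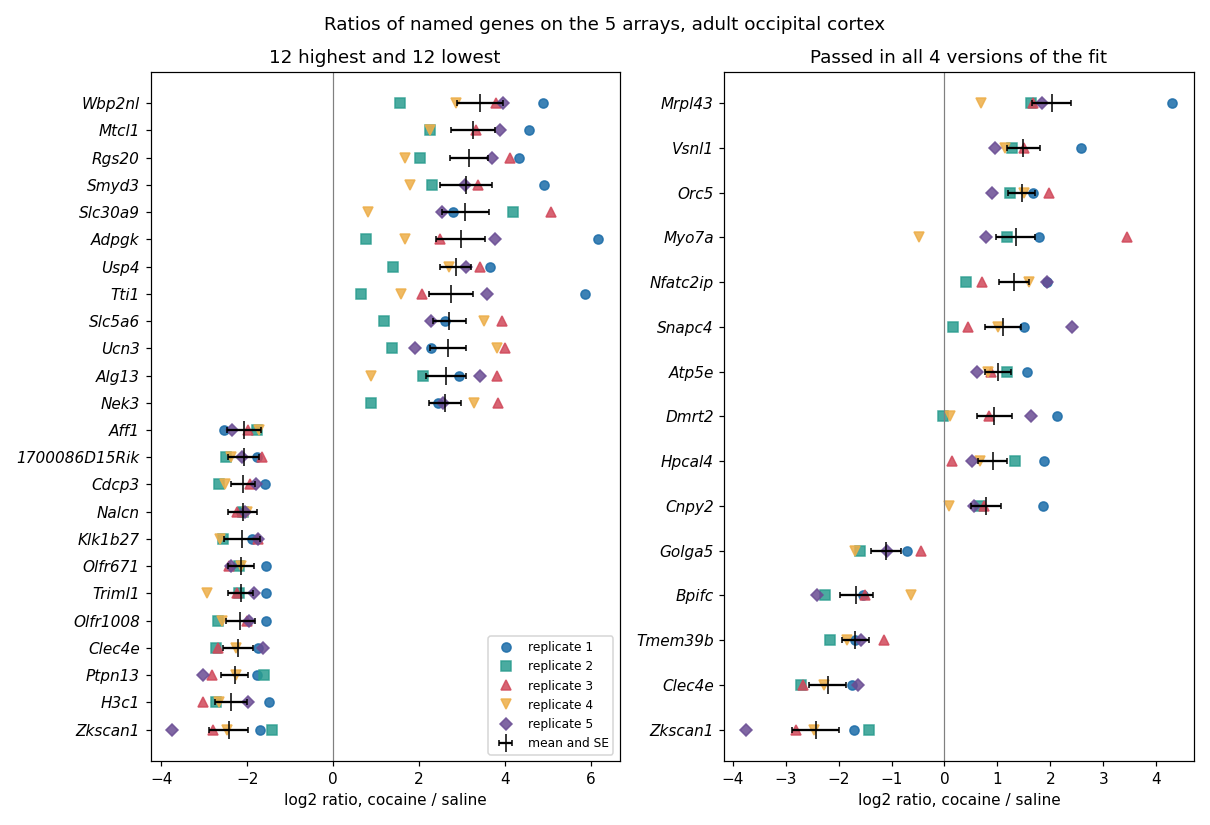
Log2 ratio of cocaine over saline (horizontal axis) of each of the 5 adult occipital arrays, with the mean and SE in black; left, the 12 highest and 12 lowest named genes, right, the 15 genes that passed in all 4 versions of the fit. Wbp2nl averages 3.41 and Zkscan1 -2.43, and replicate 1 is often the highest array on the right.

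Some genes were measured by several probes. Of 1193 such genes, all probes passed higher for 80 and lower for 57, while for 126 genes probes passed in opposite directions. For 598 some probes passed in 1 direction and the rest did not pass, and for 332 none passed. Over all probes 24.1% passed in each direction. How often unrelated probes would agree was not tested, so agreement is not taken as support for a gene. All probes of Disc1, a scaffold gene tied to psychiatric illness in humans, passed higher, at 1.39 ± 0.32 and 1.5 on its 2 probes. Ppp1r9b, the spine protein spinophilin, had 1.34 and 1.24, whereas its relative Ppp1r9a, neurabin, had -1.64 and -1.26. The other higher genes of this kind were Numa1, Ptms, Cbx3, Alcam, Med25 and Phf3, and their lowest probe means were 1.16 to 1.30. The lower ones were the phosphodiesterase Pde3a, Brd8, Bmp2k, Gml2 with 10 probes, Arhgef38, Ints6l, Ppp1r9a and the acetyltransferase Ep300. In the values freed of both trends 1 probe each of Brd8 and Ints6l and 2 of Gml2 passed, and no probe of the others. A probe of Disc1 (-0.35) and 1 each of Ptms, Cbx3, Med25 and Phf3 then lay below 0. The widest disagreement was that of Csnk1g1, with probe means of 1.94 and -1.16, followed by Atxn2l with -2.02 and 1.05.

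Genes of the mitochondrial respiratory chain, which makes most of a neuron's ATP, were mostly higher. Of 72 measured, 47 rose and 1 (Ndufab1) fell, beside 24.1% of all probes in each direction. In this and later lists a gene counts as risen if any of its probes passed higher and none lower, and the reverse for fallen. Counts of genes and the share of probes are therefore not the same measure. Their median was 0.96 and ran from 0.62 to 1.80 on the 5 arrays, beside 0.01 for all probes. Atp5k, a small subunit of ATP synthase, was at 1.96, 1.0, 2.60, 1.81 and 0.66 on replicates 1 to 5, highest on replicate 3, with a mean of 1.61 ± 0.29. Ndufb5, of complex I, was at 2.76, 1.40, 1.70, 1.30 and 1.82, highest on replicate 1, with a mean of 1.80 ± 0.35. Both genes were above 0.6 on each array. Cox8a, of complex IV, had 1.48 ± 0.31, Sdhd, the membrane anchor of complex II, 1.44 ± 0.30, and Ndufa10 1.62 ± 0.34. Limma adjusted p of these 5 ran from 0.000302 to 0.000681.

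This list is bright, with a median brightness percentile of 82.6. That percentile lies in group 9 of the 10 equal groups of all probes by brightness, where 66.4% passed higher and the median was 0.90. With both trends removed the list's median was 0.17 and 6 genes passed, all higher: Cox8a, Atp5e, Ndufb4, Atp5pb, Ndufs7 and Ndufs1, of which the last pair had not passed before. With the corrected score 13 passed, all higher. Without replicates 3 and 4 the median was 1.08 with 33 higher, and with both changes 0.27 with 1, Atp5e. Genes for cytosolic ribosomal proteins, the core of the translation machinery, were similar: 47 of 66 rose and 2 fell, while the probes of Rps12 passed in opposite directions. Their median was 1.0 and ran from 0.57 to 1.72 on the 5 arrays. Rps7 stood at 2.68, 1.30, 1.92, 2.36 and 0.81 with a mean of 1.81 ± 0.29, and Rps2 averaged 1.56 ± 0.30. This list had the highest brightness percentile of those described (89.6), and with both trends removed its median was 0.02 and none of the 66 passed. The part of brightness in the results of both lists was not tested further.

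Nuclear genes of the respiratory chain are known targets of the activator NRF1, nuclear respiratory factor 1. The windows searched ran from 250 bases before to 50 after each gene start in RefSeq (GRCm38.p6), on both strands, for the motif GCGCA, then any base, then GCGC. A match was found for 17 of 61 respiratory chain genes with a window (27.9%), for 1135 of 13223 measured genes (8.58%) and for 1402 of 27025 genes of the table (5.19%). It was held by 11 of 40 respiratory chain genes that passed higher (27.5%) and by 6 of 21 that did not (28.6%). The windows of 3 genes that rose are shown, as examples from 2 complexes, with the motif in capitals. They are from the minus strand: Atp5k at chr5:108434350-108434649, Sdhd at chr9:50603800-50604099 and Atp5o at chr16:91931581-91931880. Atp5o, the subunit of ATP synthase that confers oligomycin sensitivity, averaged 1.29 ± 0.34.
Atp5k: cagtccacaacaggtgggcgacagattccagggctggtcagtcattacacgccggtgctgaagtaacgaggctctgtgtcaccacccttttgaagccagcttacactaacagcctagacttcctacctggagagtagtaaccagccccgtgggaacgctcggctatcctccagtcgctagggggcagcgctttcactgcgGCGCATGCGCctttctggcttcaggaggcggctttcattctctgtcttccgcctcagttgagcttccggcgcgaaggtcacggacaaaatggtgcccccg
Sdhd: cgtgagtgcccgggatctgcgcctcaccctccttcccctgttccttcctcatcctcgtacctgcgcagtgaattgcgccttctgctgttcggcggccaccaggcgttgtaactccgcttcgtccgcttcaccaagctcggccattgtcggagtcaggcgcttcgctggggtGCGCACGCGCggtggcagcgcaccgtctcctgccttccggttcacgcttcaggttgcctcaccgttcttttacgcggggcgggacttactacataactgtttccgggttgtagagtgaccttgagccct
Atp5o: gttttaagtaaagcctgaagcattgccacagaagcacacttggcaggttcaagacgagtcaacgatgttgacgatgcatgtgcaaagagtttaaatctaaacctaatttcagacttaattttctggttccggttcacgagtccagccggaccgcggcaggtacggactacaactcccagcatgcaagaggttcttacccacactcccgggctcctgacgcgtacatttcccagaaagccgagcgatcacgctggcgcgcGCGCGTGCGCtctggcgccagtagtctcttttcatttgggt
The motif began 50 bases before the start of Atp5k, 79 before that of Sdhd and 10 after that of Atp5o. A match describes these letters and shows no binding.

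Synaptic genes leaned the same way. Of 44 measured genes of vesicle release, 29 rose and 1 (Synj1, which strips the coat from recycled vesicles) fell. The share of all probes was 24.1% in each direction. Their median was 0.98 and ran from 0.52 to 1.52 on the 5 arrays. Dnm1, the dynamin that pinches off vesicles, stood at 2.57, 0.90, 2.34, 1.62 and 1.01 and averaged 1.69 ± 0.33. It was above 0.8 on every array and highest on replicates 1 and 3. With both trends removed it was 1.16 with a limma adjusted p of 0.00977, and without replicates 3 and 4 as well 0.82 with 0.272. The small GTPase Rab3c averaged 1.64 ± 0.34, beta-synuclein Sncb 1.31 ± 0.27 and the vesicular glutamate transporter Slc17a6 1.19 ± 0.25. Rab3c missed the threshold without replicates 3 and 4, at 0.81, and the 3 genes did so with both trends removed. The probes of Syn3, a synapsin, disagreed, at -1.64 ± 0.29 and 0.81. Once both trends were removed the list's median was 0.27, Dnm1, Bsn and Syt1 passed higher and Syn3 and Synj1 lower. With replicates 3 and 4 left out as well its median was 0.36 and none of the 44 passed.

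At the receiving side, 16 of 31 postsynaptic density genes rose and 2 (Nlgn1 and Prkca) fell, with a median of 0.78. Of all probes 24.1% passed in each direction. Ppp3cb, a catalytic subunit of calcineurin, was at 2.17, 1.32, 2.87, 2.15 and 1.32 on replicates 1 to 5. Every array exceeded 1.3, and the mean was 1.96 ± 0.29 with a limma adjusted p of 6.99e-05. The kinase Camk2a, which strengthens synapses, averaged 1.19 ± 0.30, its relative Camk2d 1.58 ± 0.30, Pick1 1.16 ± 0.28 and Cacng2, the AMPA receptor partner stargazin, 1.35 ± 0.34, or 0.86 on its other probe. Ppp3cb and Pick1 lie at brightness percentiles 99.4 and 98.8, and 88.8% of the brightest of 10 equal groups of all probes passed higher. After removal of both trends Pick1 stood at -0.27 and Cacng2 at -0.032, Dlgap1 and Dlg2 were the genes that passed, and the median was 0.18. A list of genes that buffer, sense or pump calcium counted 14 higher and 1 lower of 25. The share of all probes was the same 24.1% each way. This list also holds Atp1b1 and Atp1b2, subunits of the sodium pump, which both passed higher. Its median was 0.76 and ran from 0.51 to 1.44 on the 5 arrays. The calcium release channel Ryr1, mainly of muscle, was at 1.71, 0.85, 3.63, 3.23 and 1.14, highest on replicates 3 and 4, and averaged 2.11 ± 0.37. That mean was 1.23 without those arrays and 0.89, with a limma adjusted p of 0.0949, with both trends removed. Its other 2 probes disagreed, at 1.10, which passed, and -0.68, below 0 on 5 of 5 arrays. Hippocalcin (Hpca) averaged 1.40 ± 0.27 and the reticulum pump Atp2a2 1.51 ± 0.33, while the plasma membrane pump Atp2b3 fell to -1.47 ± 0.29. Freed of both trends Hpca stood at -0.014 and Atp2a2 at 0.21, and Atp2b3 still passed, at -0.68. Vsnl1 and Hpcal4 were the calcium genes that passed once both trends and both arrays were taken out, when the list's median was 0.39.

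**Figure D4:**
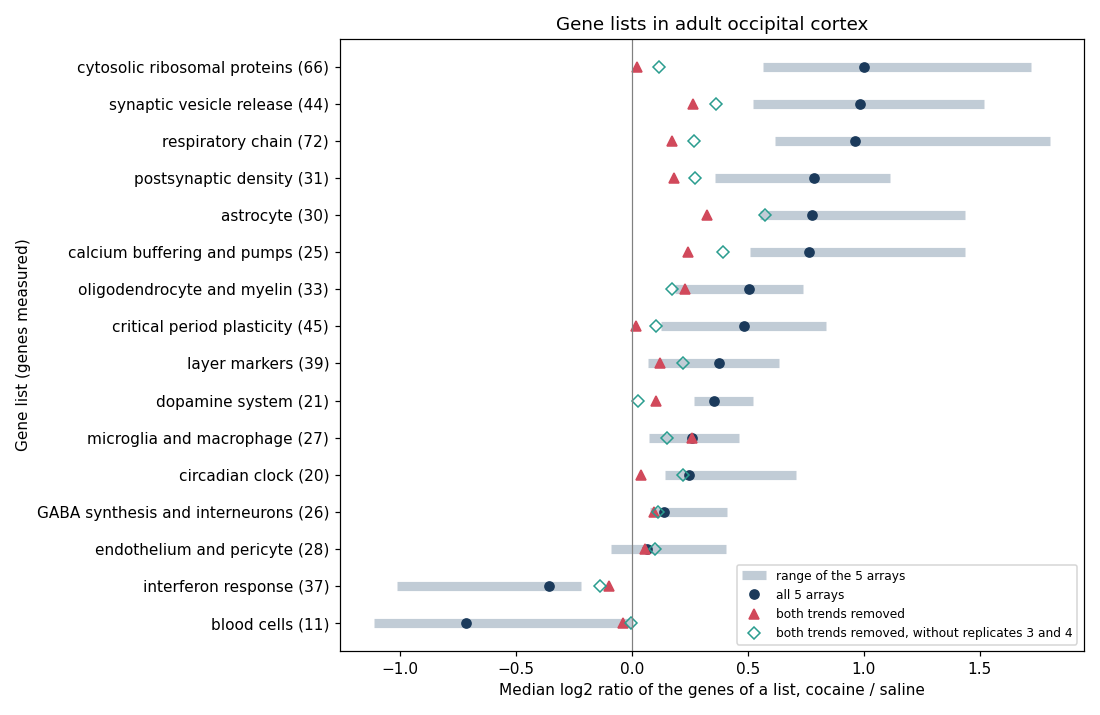
Median log2 ratio of cocaine over saline (horizontal axis) of the genes of 16 lists, as the mean of 5 arrays, with both trends removed, and with both trends and replicates 3 and 4 removed; bars span the 5 arrays. Ribosomal genes go from 1.00 to 0.02 with both trends removed, astrocyte genes from 0.78 to 0.32.

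Astrocyte markers, genes of the cells that clear glutamate and potassium around synapses, were higher in 17 of 30 cases and lower in none. Over all probes 24.1% passed in each direction. Their median was 0.78 and ran from 0.55 to 1.44 on the 5 arrays. In whole tissue, more cells of a type and more RNA per cell cannot be told apart. Gfap, the intermediate filament of astrocytes, was at 1.89, 0.83, 1.6, 1.28 and 0.64 on replicates 1 to 5, all above 0.6, and averaged 1.25 ± 0.28, a fold of 2.37. Its limma adjusted p was 0.00102, and 0.0451 with both trends removed, where the mean was 0.74. S100b averaged 1.35 ± 0.26, or 0.70 on its other probe, Sox9 1.39 ± 0.30, the glycolytic enzyme Aldoc 1.58 ± 0.34 and the lipid carrier Apoe 1.26 ± 0.29. The other probe of Aldoc was at -0.37, and without replicates 3 and 4 the higher one missed the threshold. Once freed of both trends Sox9 stood at -0.049 and Apoe at -0.050. Aqp4, the water channel of astrocyte endfeet, did not pass, at 0.14, 0.92, -0.70, -1.04 and 0.43, and the glutamate transporter Slc1a3 averaged 0.79 ± 0.34 with an adjusted p of 0.0559. In the values freed of both trends Gfap, the potassium channel Kcnj10, 1 of 2 probes of the glutamate transporter Slc1a2, Clu and Mlc1 passed higher, and the list's median was 0.32. Without replicates 3 and 4 as well it was 0.57, with none of the 30 passing.

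Genes of oligodendrocytes and myelin were mixed, with 10 higher and 5 lower of 33, beside 24.1% of all probes in each direction, and a median of 0.50. Mbp, a main protein of compact myelin, was at 2.24, 0.86, 0.44, 2.16 and 0.28, above 2 on replicates 1 and 4 and under 1 on the others, with a mean of 1.19 ± 0.37. The lineage factor Olig1 averaged 1.54 ± 0.33, the myelin genes Mobp 1.31 ± 0.29, Bcas1 1.19 ± 0.28 and Mag 1.05 ± 0.29, and the sulfatide enzyme Gal3st1 -1.31 ± 0.34. Of these 6 genes none kept its call with both trends removed, and Olig1 alone did without replicates 3 and 4. Freed of both trends, Car2, Ugt8a, Ndrg1 and Sox10 passed higher, none of which had passed before.

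Microglial genes counted 6 higher and 3 lower of 27, beside the same 24.1% of all probes each way. Aif1, which encodes the microglial marker Iba1, averaged 1.28 ± 0.27 and the innate receptor Tlr2 1.32 ± 0.28, while the integrin Itgam was at -1.36 ± 0.34 and Ptprc at -1.15 ± 0.28. Ly86, a partner of a relative of the Toll-like receptors, was at 1.31, 1.13, 1.12, 0.82 and 1.16, the tightest of these, with a mean of 1.11 ± 0.24. It was the microglial gene that passed with both trends removed. Cx3cr1, the fractalkine receptor, did not pass, with -0.60, 0.45, 0.25, 0.58 and -0.63. Genes of endothelium and pericytes went both ways, 7 higher and 5 lower of 28, near that background, with a median of 0.07. The pericyte channel subunit Abcc9 averaged -1.66 ± 0.28, Pdgfrb -1.39 ± 0.28, Tie1 -1.45 ± 0.32 and Vwf -1.5 ± 0.34, and the peptidase Anpep 1.94 ± 0.43, the last highest on replicates 3 and 4. The other probe of Vwf was at 0.46, above 0 on 4 of 5 arrays, and did not pass. Pdgfrb, Tie1 and Anpep missed the threshold with both trends removed, with limma adjusted p of 0.0958, 0.187 and 0.0638. The other genes that passed higher were Higd1b (1.25), Acta2 (1.25), Tagln (1.22), Cldn5 (1.07), Esam (0.98) and Cspg4 (0.64), and Mfsd2a passed lower (-0.88). None of them passed with both trends removed. Pecam1 (0.38) and Cdh5 (-0.12) did not pass.

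Among 11 blood cell genes 2 rose and 5 fell, beside 24.1% of all probes in each direction. The adult globin gene Hba-a1 was at 2.45, 0.70, 1.27, 1.26 and 1.20, above 0.6 on every array, with a mean of 1.37 ± 0.32. The embryonic globin gene Hba-x was at -1.55 ± 0.38, the red cell exchanger Slc4a1 at -1.21 ± 0.28, Alas2, for haem synthesis, at -1.39 ± 0.35 and Rhag at -1.03 ± 0.31. Of 37 interferon response genes 14 fell and 5 rose. Their median was -0.36 and ran from -1.01 to -0.22 on the 5 arrays. Trim30a, a restraint on inflammatory signalling, was at -2.23, -2.30, -1.37, -2.23 and -1.43, and the immunoproteasome subunit Psmb8 at -1.13, -1.72, -2.09, -2.11 and -2.11. Both were below -1.1 on all 5 arrays, with means of -1.91 ± 0.34 and -1.83 ± 0.34. The chemokine Cxcl10 averaged -1.46 ± 0.28 and the GTPase Gbp4 -1.37 ± 0.30, whereas Irf9, the DNA-binding part of the interferon-activated factor, averaged 1.70 ± 0.33. Blood and interferon genes were dim, with median brightness percentiles of 29.6 and 29.4, and with both trends removed their medians were -0.04 and -0.10. Psmb8 and Trim30a still passed then, at -1.53 and -0.89, and the other genes of both lists given here did not.

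Inhibitory neurons shape the critical period of the visual cortex. Of 26 genes of GABA synthesis and interneurons, 10 rose and 3 fell, beside 24.1% of all probes each way. Abat, which breaks down GABA, was at -1.59, -2.55, -2.12, -1.72 and -1.41, below -1.4 on each array, with a mean of -1.88 ± 0.34. It passed with both trends removed, at -1.01, although it lies at brightness percentile 1.9. The next enzyme of that route, Aldh5a1, averaged 1.11 ± 0.26, the neuregulin receptor Erbb4 1.59 ± 0.33, Gad2, which makes GABA, 1.08 ± 0.27 and the peptide Sst 1.22 ± 0.31. Other probes were at 0.079 for Erbb4 and at -0.68 for Gad2, the latter below 0 on 5 of 5 arrays with a limma adjusted p of 0.0595. None of these 4 genes passed once both trends were removed, when Sst stood at -0.073. Gad1 was at 0.26 ± 0.28 and parvalbumin (Pvalb) at 0.39 ± 0.36, and neither passed. Among 45 genes tied to critical period plasticity 16 rose and 5 fell, with a median of 0.48, or 0.02 with both trends removed. The kinase subunit Prkaca averaged 1.59 ± 0.34 and the Nogo receptor Rtn4r, a brake on plasticity, 1.19 ± 0.29, and with both trends removed 0.58 and -0.22, where neither passed.

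Of 39 layer markers of cortical neurons 10 rose and 5 fell, beside 24.1% of all probes in each direction. Cux1, of the upper layers, was at -1.24, -1.0, -1.61, -0.52 and -1.79, below -0.5 on every array, with a mean of -1.23 ± 0.33. Its relative Cux2 was below 0 on replicates 1 to 4 and at 0.76 on replicate 5, with a mean of -0.85 ± 0.35. They were the layer markers that passed with both trends removed, and neither did so once replicates 3 and 4 were left out too. Mef2c averaged 1.24 ± 0.31, Calb1 1.43 ± 0.36 and Emx1 1.07 ± 0.28, while Sulf1 was at -1.26 ± 0.28. In the dopamine list 7 genes rose and 2 fell of 21. The amine-degrading enzyme Maoa was at 1.06, 0.80, 3.36, 3.01 and 0.75, above 3 on replicates 3 and 4 and under 1.1 elsewhere, so its mean of 1.80 ± 0.32 became 0.87 without them, with a limma adjusted p of 0.0547. Nr4a2, a factor of dopamine neurons and of deep cortical cells, averaged 1.48 ± 0.30, Rgs9 1.08 ± 0.31, the cofactor enzyme Gch1 -1.29 ± 0.26 and Maob -1.09 ± 0.31. These 4 missed the threshold with both trends removed, when Maob stood at 0.0060, while Maoa passed, at 1.30. The dopamine transporter Slc6a3, a direct target of cocaine, was at -0.59, -0.68, -0.65, -1.71 and -0.47 and did not pass (mean -0.82 ± 0.40). The transporters of serotonin, Slc6a4 (-0.88 ± 0.30), and of noradrenaline, Slc6a2 (-0.99 ± 0.32), passed lower, with limma adjusted p of 0.0176 and 0.0133. Both were below 0 on 5 of 5 arrays. With both trends removed they stood at -0.39 and -0.056 and missed the threshold.

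Of 20 circadian clock genes 7 rose and 2 fell, beside 24.1% of all probes each way. The core activators Clock (-0.15, 0.72, 1.94, 2.03 and 0.71) and Arntl (1.77, 0.41, 2.40, 2.36 and -0.21) were highest on replicates 3 and 4. They averaged 1.05 ± 0.28 and 1.35 ± 0.36, but without those arrays 0.43 and 0.66, with limma adjusted p of 0.336 and 0.256. Npas2, a partner of Arntl, was at 1.51, 0.76, 0.89, 1.14 and 1.13, above 0.7 on each array, with a mean of 1.09 ± 0.25, and 1.14 without them. Hlf averaged 1.10 ± 0.31 and Rorb -0.98 ± 0.29. With the trends removed Clock passed, at 0.89, and the other 4 did not.

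The comparison with adult frontal cortex asked where the response differed between regions at 1 age. In limma 0 of 22567 probes passed, 611 (2.71%) had an unadjusted p under 0.05, and the smallest adjusted p was 0.999. None passed under any alternative run, which does not show that the regions responded alike. The 3 probes with the smallest p were those of AY036118, Tnfsf10 and Dnah7b. They were picked by that p, so ranges that lie apart follow in part from the choice. AY036118 was at 0.87, -0.01, 2.52, 2.30 and 0.14 in occipital and -0.48, -2.84, -0.08, -2.72 and -0.61 in frontal cortex, and its ranges did not overlap. Tnfsf10, the death ligand TRAIL, was at -0.88, -1.88, -1.44, -1.44 and -1.56 against -3.29, -3.27, -2.22, -4.0 and -2.55, and every frontal value lay below the occipital ones. The dynein gene Dnah7b ranged from -1.58 to 0.77 against -2.61 to -1.02, with overlap. Differences were 2.51 ± 0.57, 1.62 ± 0.42 and 1.62 ± 0.44. Brightness took up 51.4% to 57.6% of the variance of the frontal arrays, and their list medians were 1.10 for the respiratory chain, 0.86 for astrocytes and -0.67 for interferon genes.

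Against fetal occipital cortex 812 probes (3.6%) differed in limma, 567 (2.51%) toward higher and 245 (1.09%) toward lower ratios in the adult. Fetal tissue was taken 1 h after an injection, and adult tissue on postnatal day 30, long after dosing ended on embryonic day 18. Age and time since the last dose therefore cannot be told apart in this comparison. The share of higher calls was 69.8%, but 49.8% after quantile normalization, where 2700 probes passed. Brightness took up 0.441% to 26.5% of the variance of the fetal arrays and position 19.3% to 44.7%. Without replicate 3, 1 probe passed, that of Gm16740, and 0 passed without replicates 3 and 4, where 3743 probes had an unadjusted p under 0.05. Without replicates 1, 2 and 4 in turn the counts were 455, 229 and 197. Without the first of the fetal slides titled 1 the count was 332, and without that titled 4 it was 460. Once both trends were removed 99 passed, and 3 of the 10 genes named below kept their call. The genes below were picked for the largest differences that passed, so ranges that lie apart follow in part from that choice. How many of all probes lie apart in this way was not counted. The fetal values below are in the order of the slides titled 1, 1, 3, 4 and 5. The number 1 is in the titles of 2 fetal slides, and whether these share a source was not tested. Vamp2, the synaptobrevin of synaptic vesicles, was at 1.79, 1.42, 2.18, 1.40 and 0.94 in the adult and -1.86, -4.07, -0.67, -0.09 and -1.21 in the fetus. All adult values were above 0.9 and all fetal ones below 0, a difference of 3.12 ± 0.60 with a limma adjusted p of 0.0132. Ucn3 was at 2.27, 1.38, 4.0, 3.81 and 1.90 against -1.36, -2.71, 0.11, 0.03 and 1.56, with overlap, a difference of 3.14 ± 0.60. The palmitoyltransferase Zdhhc1, the cytochrome Cyp4f14 and Gm16740 differed by 3.20 ± 0.67, 3.19 ± 0.72 and 3.22 ± 0.47, without overlap and with the highest adult values on replicates 3 and 4.

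Lower ratios in the adult were led by Mc1r, the melanocortin receptor of pigment cells, at -1.43, -0.24, -1.47, -1.69 and -1.88 against 0.54, 2.40, 0.95, 0.75 and 0.69 in the fetus. The groups lay on opposite sides of 0, a difference of -2.41 ± 0.49. Dct, an enzyme of melanin synthesis, did so as well, at -0.41, -0.90, -0.62, -1.34 and -1.62 against 0.93, 0.19, 1.98, 0.08 and 2.49, a difference of -2.11 ± 0.51. Ucn2, urocortin 2, was below 0 on 5 of 5 adult arrays and above 0 on 5 of 5 fetal ones, differing by -2.07 ± 0.49. The mediator subunit Med23 differed by -2.12 ± 0.50 and Enpp6, an enzyme of newly forming oligodendrocytes, by -2.05 ± 0.48. Enpp6 was at -1.01, -1.99, -3.17, -1.98 and -2.11 in the adult, where it passed against 0 with a mean of -2.05 ± 0.34. In the fetus the list medians were 0.17 for the respiratory chain, 0.20 for vesicle release and -0.08 for astrocytes, beside 0.96, 0.98 and 0.78 in the adult.

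**Figure D5:**
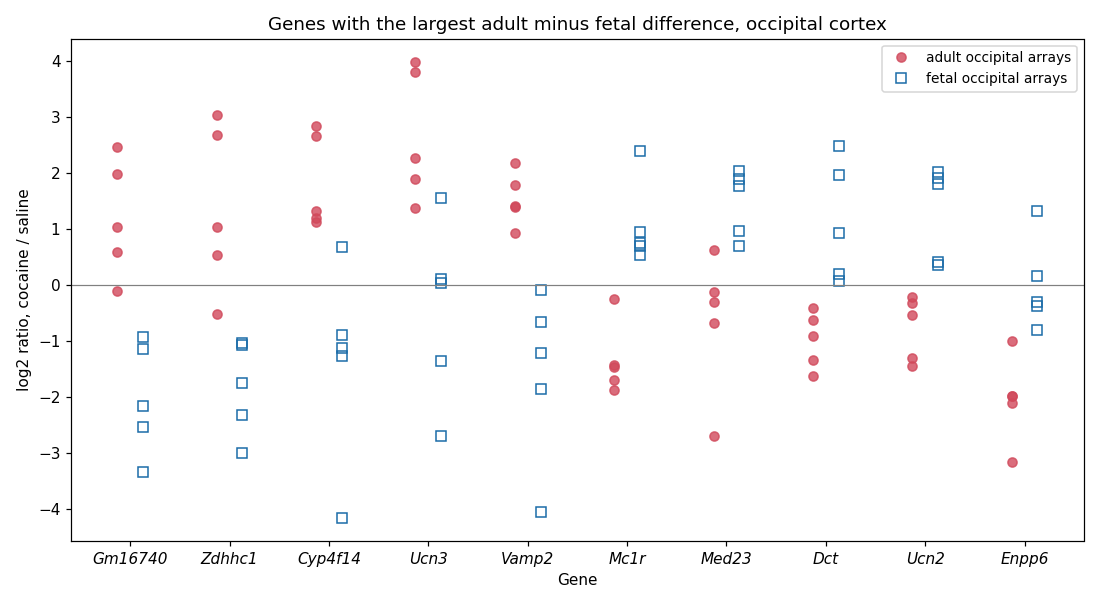
Log2 ratio of cocaine over saline (vertical axis) of the 10 genes with the largest adult minus fetal differences that passed, for the 5 adult (filled circles) and 5 fetal (open squares) occipital arrays. Vamp2 is above 0.9 on all adult arrays and below 0 on all fetal ones, and Mc1r lies below 0 on all adult arrays and above 0 on all fetal ones.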

How the data were processed

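Log2 ratios were deposited for 22575 probes of an Agilent 2-colour array, made by the authors, per the labels' protocols, from RNA labelled by reverse transcription with dendrimer capture. No label or header used here names the image software, background correction or normalization, and no intensities were used. The log base was checked on 565 ratios of 82 dim spots: 95.8% were quotients of whole numbers up to 20 if read as log2, against 26.6% as natural logs. Depth does not apply to arrays, so the number of arrays limits the precision.

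Each array's maximum value, carried by 13 to 20 probes on adult occipital arrays and 6 to 27 over all 20, was treated as missing and each array was centred on its median. Probes with at least 3 values in each of 4 groups were kept (22567). A limma 3.58.1 model (R 4.3.3) of 4 group means on 20 arrays gave two-sided p-values, adjusted over every probe kept by the Benjamini-Hochberg method, and was first tested on simulated data. Probe names came from the platform annotation: 18218 probes had 1 symbol, 16 several and 4341 none.

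Named genes were, by rule, the 12 highest and 12 lowest that passed with 1 sign on 5 arrays, the 8 in each direction ranked with both trends removed, the 8 in each direction whose probes all passed, the largest differences between groups, and up to 5 members of a list with the smallest p. The members and lists were chosen with earlier results of these data known. The defining markers of a cell type were named too, and genes named because they passed an alternative were chosen after their values were seen. The 41 lists hold 1216 measured genes. A brightness score was taken from the lowest whole numbers, at most 400, whose quotient gives a ratio within 0.001, and its trend was removed by lowess (span 0.3), position (inferred rows of 215 spots) by loess (span 0.05). Same-numbered adult frontal and occipital arrays deviated together with correlations of -0.01, 0.38, -0.08, 0.05 and 0.08, so numbers were not taken as pairs. Alternatives changed centring, scaling, normalization, filters, threshold, regression, weights, trends and arrays.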

Additional observations from a re-analysis of the deposited data

Results flagged for a closer look

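A single array stood far from the other 4 for 7 of 186 values examined. Chance gives about 1 in 20, so the count is no higher than chance would give. Replicate 2 was the odd one for Brd8 (-0.17, others -2.32 to -1.92), Atxn2l (0.83, others -3.20 to -2.41) and Mc1r (-0.24, others -1.88 to -1.43). Replicate 1 was the odd one for Sncb (2.72, others 0.67 to 1.26), Aldh5a1 (2.23, others 0.70 to 1.06), Atp2a2 (2.60, others 1.02 to 1.42) and the median of the respiratory chain genes (1.80, others 0.62 to 0.96). The cause was not tested.

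The response to cocaine differed between adult and fetal occipital cortex by the limma test of the difference for 10 named genes. The adult ratio was the higher one by 3.22 for Gm16740, 3.20 for Zdhhc1, 3.19 for Cyp4f14, 3.14 for Ucn3 and 3.12 for Vamp2. The difference was -2.41 for Mc1r, -2.12 for Med23, -2.11 for Dct, -2.07 for Ucn2 and -2.05 for Enpp6. None of the 10 passed without replicates 3 and 4, and Gm16740 alone passed without replicate 3. Without replicate 4, 7 of them kept their call and 3 missed the threshold. With both trends removed 3 kept it and 7 missed the threshold.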

How the results depend on the processing

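The count of probes against 0 stayed within 1.5 times of 10882 without centring, with scaling, quantile normalization, other filters, robust regression, array weights, the threshold of 0.1 and the position trend removed (9062 to 13411). It was 1562 with the brightness trend removed, 2098 with both trends removed and 8574 to 10150 with each replicate left out. Alternatives chosen after seeing the data gave 4460 with the corrected score, 5013 without replicates 3 and 4 and 36 with both trends removed as well. Called genes of the lists numbered 625 of 1216, then 70 with brightness and 99 with both trends removed, 226 with the corrected score, 317 without replicates 3 and 4, 5 with both changes, and 470 to 600 with each replicate left out. For the adult minus fetal difference, 812 became 2817 at a threshold of 0.1, 1430 without centring, 1276 with scaling, 2700 with quantile normalization, 4314 with robust regression, 3239 with array weights, 431, 441 and 99 with brightness, position or both trends removed, and 0 without replicates 3 and 4. Leaving out each adult array gave 1 (replicate 3) to 575, and each fetal array 332 to 925. Its calls were 69.8% higher, 49.8% with quantile normalization. The difference from frontal cortex kept 0 calls throughout, with 197 to 1904 probes at an unadjusted p under 0.05. A replicate block on the title numbers, which do not pair the samples (no occipital array correlated best with its own number), gave 12598 probes against 0, 714 list genes and 0 between adult regions. Over the occipital arrays it gave 0 between ages, and the planned block of adult arrays could not be run there. The causes were not tested. Of 158 probes named by rule, 51 kept their call with both trends removed, 94 missed the threshold and 13 turned in sign. With replicates 3 and 4 left out as well 7 kept it. Turned in sign with the brightness trend removed were Disc1 (-0.14), Ptms (-0.39), Med25 (-0.26), Rpl13a (-0.018), Slc17a6 (-0.013), Pick1 (-0.18), Cacng2 (-0.046) and Rtn4r (-0.30). With both trends removed these were Disc1 (-0.35), Ptms (-0.68), Cbx3 (-0.015), Med25 (-0.13), Phf3 (-0.16), Pick1 (-0.27), Cacng2 (-0.032), Sst (-0.073), Rtn4r (-0.22), Maob (0.0060), Hpca (-0.014), Sox9 (-0.049) and Apoe (-0.050). With the corrected score they were Ptms (-0.17) and Rtn4r (-0.092), and with a gene's probes averaged Csnk1g1 (0.39) and Atxn2l (-0.49). With both trends removed and without replicates 3 and 4 they were Disc1 (-0.55), Numa1 (-0.16), Ptms (-0.55), Cbx3 (-0.12), Alcam (-0.023), Med25 (-0.17), Phf3 (-0.36), Gml2 (0.16), Rpl22 (-0.18), Rab3c (-0.10), Pick1 (-0.24), Cacng2 (-0.076), Sst (-0.068), Rtn4r (-0.063), Maob (0.29), Mobp (-0.16), Aldoc (-0.26), Alas2 (0.080) and Rhag (0.093). Signal over background is unknown for every probe.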

Other observations

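Other gene groups were counted in the same way, beside 24.1% of all probes in each direction. Proteasome genes, which degrade tagged proteins, had 20 higher and 2 lower of 36 with a median of 0.83, and genes of heat shock and the unfolded protein response 16 higher and 1 lower of 28 with 0.83. Glycolysis genes had 12 higher and 3 lower of 22 with 0.78, and potassium channels 17 higher and 4 lower of 41 with 0.53. Mitosis genes had 6 higher and 12 lower of 30 with -0.14. With both trends removed these medians were 0.09, 0.17, 0.20, 0.12 and -0.17. Immediate early genes had 6 higher and 5 lower of 31, and glucocorticoid and stress axis genes 5 higher and 0 lower of 17. Kl, a choroid plexus gene that encodes klotho, was at -1.76, -1.56, -2.02, -2.86 and -1.76 on replicates 1 to 5 with a mean of -1.99 ± 0.29, and at -1.12 with both trends removed, where it still passed in limma with an adjusted p of 0.00518. Markers of choroid plexus and ependyma as a whole had 3 higher and 3 lower of 16.

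Probes for receptors of the nose also passed. Of 803 olfactory receptor probes 109 were higher and 276 lower with a median of -0.38, and of 119 vomeronasal receptor probes 12 were higher and 54 lower with -0.61, beside 24.1% of all probes in each direction. With both trends removed 24 and 61 olfactory and 4 and 6 vomeronasal probes passed higher and lower, beside 4.97% and 4.33% of all probes.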
